A study of Mus musculus with 3 samples.

Results

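Respiratory chain and ATP synthase genes were nearly all lower in GDF15-stimulated NIH3T3 fibroblasts than in unstimulated cells, by a modest amount, and less so in TGF-β-stimulated cells. The genes were chosen by symbol alone: *Nduf* genes (with the letters a, b, c, s or v and a number), *Sdha* to *Sdhd*, *Uqcr* genes, *Cyc1*, *Cycs*, *Cox4* to *Cox8* genes and *Atp5* genes. This gave 86 of the 15554 genes of the table, of which 78 had a mean of at least 1 over the 3 libraries in FPKM, which is the number of fragments per kilobase of transcript and per 1e6 mapped fragments, and are called expressed here. In GDF15, 74 of the 78 were lower than in CTRL, and the median change was -0.35 (quartiles -0.47 and -0.22) as a difference of log2(FPKM + 1). The median change in TGF-β was -0.21, and the medians over all 9226 expressed genes of the table were -0.03 and -0.07. Most members have short transcripts, and other genes with short transcripts were lower in GDF15 too, so the medians over the members, the complexes and the main gene groups are also given relative to genes of similar length. Values of single genes are unadjusted unless stated.

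NIH3T3 is a long-established fibroblast line from mouse embryos. For 24 h the cells were kept in serum-free medium with no added protein (CTRL), with 100 ng/mL of GDF15, or with 4 ng/mL of TGF-β. The RNA of each treatment was pooled before sequencing, and each treatment has 1 library. No difference therefore has a replicate check, no test between treatments was possible, and the 2 comparisons with CTRL share that library.

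The respiratory chain sits in the inner mitochondrial membrane. Complex I takes electrons from NADH and complex II, which is also an enzyme of the citric acid cycle, takes them from succinate. Complex III passes the electrons to cytochrome c, and complex IV passes them to oxygen. The chain pumps protons out of the matrix, and ATP synthase (complex V) lets them back in to make ATP. A few core subunits are encoded by mitochondrial DNA, whereas all genes described here are nuclear, and fibroblasts in culture express the chain as part of their ordinary metabolism. Nuclear respiratory factor 1 (NRF1), factors of the ETS family such as GABP, and YY1 are known regulators of these nuclear genes.

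FPKM summed to between 306603 and 331179 per library, and the depth estimated from the steps of low values was between 17.9 and 21.95 (1e6 fragments), highest in GDF15. All 8 fibroblast markers looked for were expressed, with a summed FPKM of 12201 in CTRL, 15971 with GDF15 and 14148 with TGF-β. They did not move together: 5 of the 8 lay above CTRL with GDF15 and 4 with TGF-β. The collagen gene *Col1a1* was at 1103, 1669 and 1902, and *Vim*, which encodes vimentin, at 2245, 2018 and 1699.8 None of the 5 epithelial or 3 endothelial markers reached a mean FPKM of 1. Of 4 blood cell markers *Cd68* did, at 1.66, 1.14 and 1.67 in CTRL, GDF15 and TGF-β, and of 6 striated muscle markers *Tnnt3* did, at 3.93, 3.27 and 2.80. *Epcam*, *Emr1* and *Actn2* were listed at 0 in all 3 libraries. In these bulk libraries, fewer cells and less RNA of a kind per cell cannot be told apart.

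Promoters of the members were searched for letters known to bind the regulators named above. RefSeq promoters (GRCm38.p6), each from 250 bases before to 50 bases after the start, were found for 69 of the 86 members, which gave 75 promoters. The NRF1 letters GCGCATGCG or GCGCACGCG, on either strand, were in 18.7% of the member promoters, in 7.72% of the promoters of expressed genes, and in 3.36% of all 32851 promoters. The YY1 letters AAGATGGCG were in 12% of member promoters, 3.29% of those of expressed genes and 1.40% of all. The ETS letters CCGGAAG were in 21.3%, 18.4% and 8.86% in the same order. Promoters of mitochondrial ribosomal protein genes held the NRF1, YY1 and ETS letters in 13.7%, 11.0% and 32.9%, and those of cytosolic ribosomal protein genes in 7.23%, 7.23% and 31.3%. The stretches below are shown because they place the NRF1 letters in genes of different complexes. Each covers the last 100 bases before the start, 5′ to 3′ on the strand of the gene, with NRF1 matches in capitals.

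The first 4 lie on the minus strand at chr6:50566570-50566669 (*Cycs*), chr9:50603850-50603949 (*Sdhd*), chr2:36049339-36049438 (*Ndufa8*) and chr5:108434400-108434499 (*Atp5k*), and the fifth lies on the plus strand at chr17:56717662-56717761 (*Ndufa11*).
Cycs: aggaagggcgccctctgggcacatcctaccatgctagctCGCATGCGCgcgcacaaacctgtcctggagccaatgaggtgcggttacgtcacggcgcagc
Sdhd: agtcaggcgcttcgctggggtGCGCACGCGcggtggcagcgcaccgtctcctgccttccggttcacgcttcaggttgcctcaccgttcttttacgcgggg
Ndufa8: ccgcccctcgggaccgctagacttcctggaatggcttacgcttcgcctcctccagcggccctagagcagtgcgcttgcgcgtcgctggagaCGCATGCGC
Atp5k: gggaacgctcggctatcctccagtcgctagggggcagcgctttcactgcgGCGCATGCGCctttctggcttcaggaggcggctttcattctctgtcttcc
Ndufa11: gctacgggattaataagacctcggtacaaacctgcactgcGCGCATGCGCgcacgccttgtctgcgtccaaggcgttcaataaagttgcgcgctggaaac
For contrast, *Sdha* (minus strand, chr13:74350241-74350340) and *Ndufa3* (plus strand, chr7:3617273-3617372) hold neither form of the NRF1 letters in the whole promoter window.
Sdha: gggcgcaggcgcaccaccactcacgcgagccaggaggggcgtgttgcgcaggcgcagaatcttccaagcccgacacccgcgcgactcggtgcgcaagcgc
Ndufa3: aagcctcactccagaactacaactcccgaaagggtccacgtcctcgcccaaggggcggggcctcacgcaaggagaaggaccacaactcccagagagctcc

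The 14 expressed members with an NRF1 match had a median change in GDF15 of -0.38, and the 51 without one also had a median of -0.38. For the ETS letters the medians were -0.47 over 16 members with a match and -0.34 over 49 without, whose median transcript lengths were 620.5 and 1001 bases. For the YY1 letters they were -0.48 over 8 members and -0.35 over 57, with median lengths of 1116 and 875 bases. In TGF-β the YY1 medians were both -0.22, whereas for NRF1 and for ETS they were -0.27 with a match and -0.21 without. *Atp5k* has a match and the largest decrease, *Ndufa3* has none and the next largest, and *Cycs* has a match and a change of -0.14.

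In their level, the members belong to the well-expressed genes of these cells. The median FPKM of the 78 in CTRL was 74.1, against 12.9 over all expressed genes. Summed over the 86 members, FPKM was 9434 in CTRL, 7172 with GDF15 and 7914 with TGF-β, which is 2.85%, 2.34% and 2.55% of the sum of all genes. The order CTRL, TGF-β, GDF15 from high to low held for 50 of the 78 members, GDF15 was the lowest library for 57, and TGF-β for 19. Of all 9226 expressed genes, that order held for 1736, GDF15 was the lowest for 2399 and TGF-β for 4061.

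**Figure D1:**
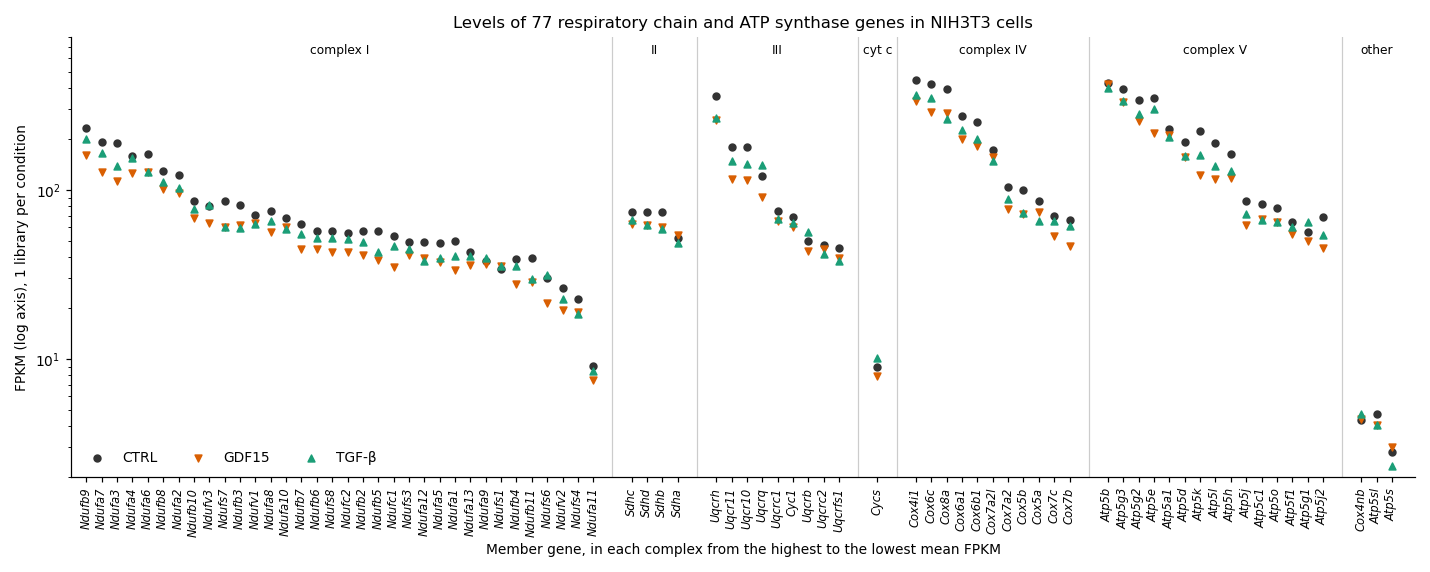
FPKM (log axis) of 77 expressed members, grouped by complex and ordered by mean level, with 1 point per library and no error bar because each condition has 1 library. The GDF15 point is the lowest of the 3 for 57 of these members and the CTRL point the highest for 66. Of all 9226 expressed genes, GDF15 was the lowest for 2399 and CTRL the highest for 4466.

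With 1 added to each FPKM, no member differed by more than 2-fold in any comparison, where 0.289% of all 15554 genes did so in GDF15 and 0.913% in TGF-β. The direction was the common feature: 74 of 78 members (94.9%) were lower in GDF15 than in CTRL, against 55.6% of all expressed genes. In the middle range of the members' transcript lengths (664.75 to 1602.75 bases), 97.4% of 38 members and 84.6% of 1297 other genes were lower. By more than 0.32 on the log2 scale, 45 members (57.7%) were lower in GDF15, against 10.0% of all expressed genes, and 0 were higher, against 6.53%. In TGF-β, 69 members (88.5%) were lower than in CTRL, against 62.8%, and in that length range 89.5% of members and 76.8% of other genes. By more than 0.32, 18 members (23.1%) were lower in TGF-β, against 14.3% of all expressed genes, and 0 were higher, against 6.80%. Between both stimulated libraries, 58 members (74.4%) were higher in TGF-β than in GDF15, against 39.7%, and 12 (15.4%) by more than 0.32, against 3.91%. In the same length range, 18.4% of members and 38.5% of other genes were lower in TGF-β than in GDF15. After scaling of each library to the same sum of FPKM, 70 of the 78 members were lower in GDF15, against 38.6% of all expressed genes, and 65 in TGF-β, against 48.5%. By more than 0.32, 28 members were then lower in GDF15, against 5.83%, and 9 in TGF-β, against 10.2%, so that in TGF-β the members' share at this limit was close to that of all genes. The 2-fold limit is the criterion of the study, and the limit of 0.32 on the log2 scale was added here for smaller differences.

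Single changes can be set beside the scatter between genes of similar level. The local spread, a scaled median absolute deviation taken over about 500 genes of the closest mean level, had a median of 0.22 over the members. The counting error of a change, from estimated fragments, had a median of 0.07 on the log2 scale. The variation between cultures is not covered by either value.

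Complex I was represented by 37 genes, 35 of them expressed. Of the 35, 34 were lower than CTRL in GDF15 (32 after scaling to equal sums of FPKM) and 25 by more than 0.32, against 55.6% (38.6% after scaling) and 10.0% of all expressed genes. The median change was -0.35 in GDF15 and -0.20 in TGF-β. Their summed FPKM was 2676 in CTRL, 2019 with GDF15 and 2295 with TGF-β.

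The 7 nuclear core subunits, which carry the flavin and the iron-sulfur clusters or form the module that reaches the quinone, changed less than the accessory subunits in GDF15. Their median change in GDF15 was -0.27 and that of the other 28 expressed complex I genes was -0.37. Relative to other genes of similar length (about 500 in the wider set of neighbours and about 100 in the narrower one), these medians were -0.037 and -0.12 with the wider set, while in TGF-β the order of the adjusted medians turned between the wider and the narrower set of neighbours. *Ndufs1*, the largest core subunit, had an FPKM of 33.9 in CTRL, 35.3 with GDF15 and 35.2 with TGF-β, and was the only complex I gene higher in GDF15 than in CTRL. *Ndufv1*, which binds the flavin and NADH, was at 70.9, 63.6 and 62.6 in the same order. Both genes stayed within 0.18 of CTRL on the log2 scale in both stimulated libraries.

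The smaller core subunits were further apart. *Ndufs7*, which holds the last iron-sulfur cluster, was at 86.2 in CTRL and at 60.2 and 60.1 in GDF15 and TGF-β, a change of -0.51 in both. *Ndufs8* was at 56.8, 42.6 and 51.7, and *Ndufv2* at 26.3, 19.5 and 22.6, each with a change of -0.41 in GDF15. *Ndufs3* was at 49.4, 40.9 and 44.5, but 84.1% of its longest transcript is near-identical to other genes or pseudogenes, so its reads may be split among copies.

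Among the expressed accessory subunits, *Ndufb9* was the highest and *Ndufa11* the lowest in level. *Ndufb9* had an FPKM of 232 in CTRL, 161 with GDF15 and 200.1 with TGF-β, and *Ndufa11* 9.08, 7.46 and 8.52. Both showed the order most frequent among the members, with GDF15 lowest and TGF-β between. *Ndufa3*, with a transcript of 515 bases, had the largest decrease in the complex, from 189 to 113 in GDF15 and 139 in TGF-β (changes of -0.74 and -0.44). *Ndufs6*, a zinc-binding subunit added late in assembly, was at 30.3, 21.4 and 31.3, and *Ndufc1* at 53.3, 34.8 and 46.8. Both were lowest in GDF15, and between the stimulated libraries they differed by 0.53 and 0.42. *Ndufa4*, named as a complex I subunit but now assigned to complex IV, was at 158, 125 and 155, and its change in TGF-β (-0.03) turned above 0 under both other scalings. Its relative *Ndufa4l2* was at 0.211 in CTRL and 0.0602 in GDF15, an estimated 2.81 and 0.937 fragments, and was listed at 0 in TGF-β. *Ndufs5* was listed at 4.76e-05, 2.61e-05 and 6.43e-05. It shares 46.9% of its longest transcript with a near-identical pseudogene, and its level is taken as uncertain.

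Complex II has 4 subunits, with median changes of -0.24 in GDF15 and -0.20 in TGF-β. The median difference between both stimulated libraries was -0.01, against 0.09 to 0.17 in the other complexes. Complex II has longer transcripts (median 2066 bases). After adjustment for length the difference was -0.057, against 0.0020 to 0.098 in the other complexes, and with about 100 neighbours -0.066, against -0.028 to 0.11. *Sdha*, the flavoprotein that oxidises succinate, had an FPKM of 51.6 in CTRL, 53.9 with GDF15 and 48.6 with TGF-β. Its change of 0.06 in GDF15 was, together with that of *Atp5s* (0.06), the highest of the 78 members. *Sdhb*, the iron-sulfur subunit, was at 74.3, 60.0 and 58.9. The membrane anchors *Sdhc* and *Sdhd* were at 73.9, 62.6 and 66.4 and at 73.9, 61.8 and 62.2. The partners of *Sdha* were thus lower in both stimulated libraries, by between 0.15 and 0.33 on the log2 scale, while the changes of *Sdha* were 0.06 and -0.08. By more than 0.32, none of the 4 was lower in GDF15 and only *Sdhb* was in TGF-β. These numbers are too small to set apart from the 10.0% and 14.3% of all expressed genes.

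In complex III, all 9 members were lower than CTRL in GDF15 (8 after scaling to equal sums of FPKM, all but *Uqcrc2*), and the median was -0.21. Of all expressed genes, 55.6% were lower in GDF15 (38.6% after that scaling). In TGF-β, 7 of the 9 were lower, a number too small to set apart from the 62.8% of all expressed genes. The catalytic and core subunits changed little in GDF15: *Cyc1*, the cytochrome c1 subunit, was at 69.2 in CTRL, 60.0 with GDF15 and 64.1 with TGF-β. The Rieske iron-sulfur protein *Uqcrfs1*, lowest in level of the complex, was at 45.6, 39.8 and 37.8. The core proteins *Uqcrc1* and *Uqcrc2* were at 75.5, 65.3 and 67.1 and at 47.2, 45.0 and 41.8. All 4 lay within 0.21 of CTRL in GDF15, whereas *Uqcrfs1* changed by -0.27 in TGF-β.

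The small subunits of complex III differed most from each other. *Uqcr10*, with a transcript of 434 bases, was at 179 in CTRL, 115 with GDF15 and 142 with TGF-β, a change of -0.63 in GDF15. *Uqcrh*, the hinge protein and the highest of the complex, was at 359.7, 260.1 and 268. *Uqcrq* was at 121, 91.2 and 141 and *Uqcrb* at 50.1, 43.7 and 56.6. These last 2 genes were below CTRL in GDF15 and above it in TGF-β (0.22 and 0.17). The difference of 0.62 between the stimulated libraries for *Uqcrq* was the largest of all members. *Uqcrb* shares 68.6% of its longest transcript with near-identical copies.

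*Cycs*, the mobile electron carrier cytochrome c, which is also released from mitochondria in apoptosis, had an FPKM of 8.92 in CTRL, 7.97 with GDF15 and 10.2 with TGF-β. Its changes were -0.14 and 0.17. Its level was low beside those of the complexes that it connects, and since 33.7% of its longest transcript is shared with other genes, the level is uncertain.

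The genes named *Cox4* to *Cox8* in complex IV were lower throughout. All 11 expressed ones were below CTRL in both stimulated libraries, also under both other scalings, 9 of them by more than 0.32 in GDF15 (against 10.0% of all expressed genes) and 4 in TGF-β (against 14.3%), with medians of -0.46 and -0.27. The changes in GDF15 ran from -0.54 to -0.14. *Cox4i1*, the regulatory subunit that is the highest of the complex, had an FPKM of 449.5 in CTRL, 337 with GDF15 and 364 with TGF-β. *Cox5a* was at 86.0, 73.7 and 65.2 and *Cox5b* at 99.8, 71.6 and 73.1. *Cox8a* was at 398, 285 and 263, and its change of -0.60 was the largest decrease of any member in TGF-β. In *Cox5a* and *Cox8a* the TGF-β library was the lowest, unlike in most members.

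Several complex IV subunits exist in paired isoforms, a ubiquitous form and a form of heart, skeletal muscle, lung or testis. The libraries held the ubiquitous form. *Cox6a1* was at 274, 199.8 and 227 in CTRL, GDF15 and TGF-β, and *Cox6b1* at 251, 182 and 199. *Cox7a2* was at 104, 76.7 and 88.6. Each of them was highest in CTRL and lowest in GDF15. *Cox7b*, the lowest expressed gene of the complex, was at 66.2, 46.5 and 61.3. *Cox7a2l*, which joins complexes III and IV into supercomplexes, was at 171, 156 and 148, and with a transcript of 1129 bases, the longest of the complex, had the smallest change in GDF15 (-0.14).

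The tissue forms were at or near 0. *Cox6b2*, *Cox8b* and *Cox8c* were listed at 0 in all 3 libraries. *Cox4i2* was at 0.102 in CTRL, under 1 estimated fragment (0.975), and was listed at 0 in the others. *Cox7a1* was at 0.657, 0.281 and 0 and *Cox6a2* at 0.117, 0.302 and 0.615, which are between 0 and 5.01 estimated fragments. With fragment numbers under or near the floor of 3, no order between the libraries was read for these genes. In the *Cox6a* pair, *Cox6a1* made up 99.7% of the summed FPKM or more in every library. No switch between isoforms was detectable.

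ATP synthase was represented by 15 genes. All 15 were lower than CTRL in GDF15 (14 under either other scaling, all but *Atp5b*) and 14 in TGF-β. Of all expressed genes, 55.6% were lower in GDF15 (50.9% with a common upper quartile and 38.6% with equal sums) and 62.8% in TGF-β. The medians were -0.30 and -0.28, and the changes in GDF15 ran from -0.86 to -0.02. The catalytic F1 head is built from the alpha and beta subunits. *Atp5b*, the beta subunit and the highest of all members in GDF15 and TGF-β, had an FPKM of 428 in CTRL, 421 with GDF15 and 400.1 with TGF-β. *Atp5a1*, the alpha subunit, was at 228, 211 and 205. The changes were -0.02 and -0.10 for the beta subunit and -0.11 and -0.15 for the alpha subunit.

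The central stalk of the F1 part was lower. *Atp5c1* (gamma) was at 82.5, 67.0 and 66.2, *Atp5d* (delta) at 193, 157 and 158, and *Atp5e* (epsilon) at 349, 216 and 300.3. *Atp5e*, with a transcript of 421 bases, had a change of -0.69 in GDF15 and -0.22 in TGF-β. Thus within the F1 part the change in GDF15 ran from -0.02 for the beta subunit to -0.69 for the smallest subunit.

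Subunit c, which forms the rotating ring of the membrane part, is encoded by 3 genes whose mature proteins are identical. *Atp5g1* was at 56.0 in CTRL, 50.1 with GDF15 and 64.2 with TGF-β, *Atp5g2* at 342, 255 and 279.5, and *Atp5g3* at 395, 331 and 334. Their sum was 793, 636 and 678. *Atp5g1* was 7.06% of this sum in CTRL, 7.88% with GDF15 and 9.48% with TGF-β, and was the only one of the 3 above CTRL in a stimulated library (0.20 in TGF-β).

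The small membrane subunits that join ATP synthases into dimers had the largest median decrease of the groups described here, -0.70 in GDF15 and -0.44 in TGF-β. Their transcripts are short, and relative to about 500 genes of similar length the medians were -0.41 and -0.24 (-0.32 and -0.21 with about 100). Over *Atp5k* (e), *Atp5l* (g) and *Atp5j2* (f), summed FPKM was 482 in CTRL, 284 with GDF15 and 354 with TGF-β, which is 58.8% and 73.4% of CTRL. *Atp5k*, with the shortest transcript of all members (371 bases), was at 224, 123 and 161. Its changes of -0.86 and -0.48 made it the largest decrease in GDF15 among the 78. *Atp5l* was at 189, 116 and 139, with 72.2% of its longest transcript shared with pseudogenes, and *Atp5j2*, the lowest ATP synthase gene in mean level, was at 69.4, 45.6 and 54.4. The 4 peripheral stalk genes (*Atp5f1*, *Atp5h*, *Atp5j* and *Atp5o*) had medians of -0.38 and -0.27, and of -0.14 and -0.096 relative to genes of similar length. *Atp5h* and *Atp5f1* share 71.1% and 64.6% of their longest transcripts with near-identical copies, so their reads may be split.

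**Figure D2:**
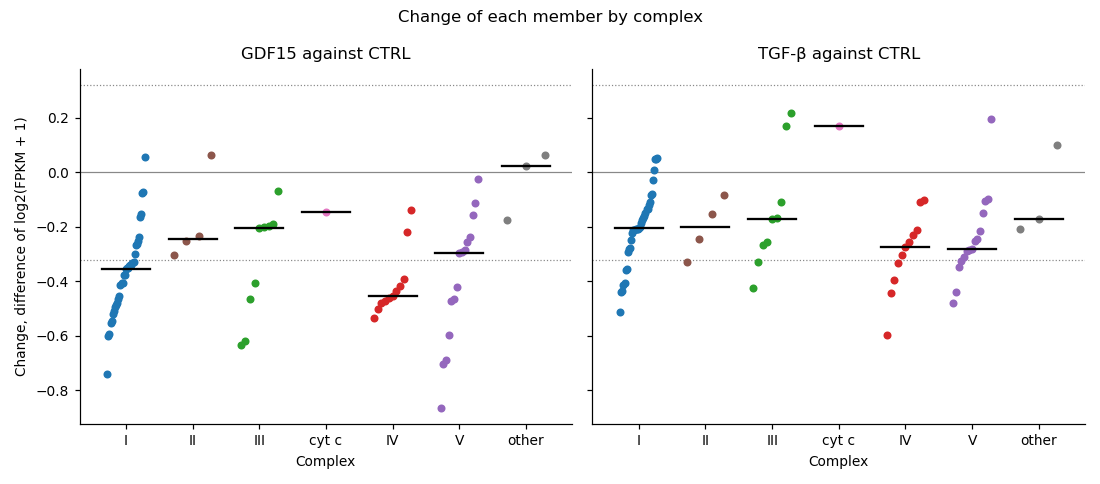
Change of each expressed member, as a difference of log2(FPKM + 1), against CTRL in GDF15 (left) and TGF-β (right), by complex. Each point is 1 gene, bars are medians, and dotted lines mark 0.32 in either direction. Complex IV lies entirely below 0 in both panels, and complex V has the lowest point, *Atp5k* at -0.86.

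Scaling of each library to the same sum of FPKM made these medians smaller. They became -0.25 (I), -0.14 (II), -0.097 (III), -0.35 (IV) and -0.19 (V) in GDF15, and -0.11, -0.11, -0.082, -0.18 and -0.19 in the same order in TGF-β. Over all members they were then -0.24 and -0.12, and over all expressed genes 0.07 and 0.0089.

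The rule also took up 3 genes that are not known as subunits: *Cox4nb* (now *Emc8*, a part of a membrane protein insertion complex that overlaps *Cox4i1*), *Atp5s* (now *Dmac2l*) and *Atp5sl* (now *Dmac2*). *Cox4nb* was at 4.33 in CTRL, 4.42 with GDF15 and 4.71 with TGF-β, *Atp5s* at 2.83, 3.0 and 2.32 and *Atp5sl* at 4.72, 4.07 and 4.07. They were the lowest of the expressed members in level, and 2 of the 3 were higher in GDF15 than in CTRL. Without them, 73 of 75 members were lower in GDF15, against 55.6% of all expressed genes.

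The change went with transcript length. The 78 have a median longest coding transcript of 963 bases, against 3139 over all expressed genes. Across the members, which share the same 3 libraries and are not independent replicates, Spearman's rho of the change with this length was 0.69 for GDF15 and 0.45 for TGF-β, and across the other 9116 genes it was 0.47 and 0.24. The 5 members of up to 500 bases had a median change in GDF15 of -0.63 and the 8 members over 2500 bases had one of -0.13. Over other genes, the median was -0.44 for 37 genes of up to 500 bases and 0.03 for 5902 genes over 2500 bases.

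Members lay below other genes of similar length in GDF15. Among transcripts of over 700 and up to 1000 bases, the median was -0.42 over 19 members and -0.28 over 296 other genes, and among those of over 1000 and up to 1500 bases, it was -0.29 over 13 members and -0.20 over 781 others. In TGF-β the corresponding medians were -0.26 and -0.18, and -0.21 and -0.15. The difference in GDF15 had the same sign in all 6 length classes, whereas in TGF-β it was reversed in the shortest and the longest class (up to 500 bases: -0.28 over members and -0.32 over others).

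**Figure D3:**
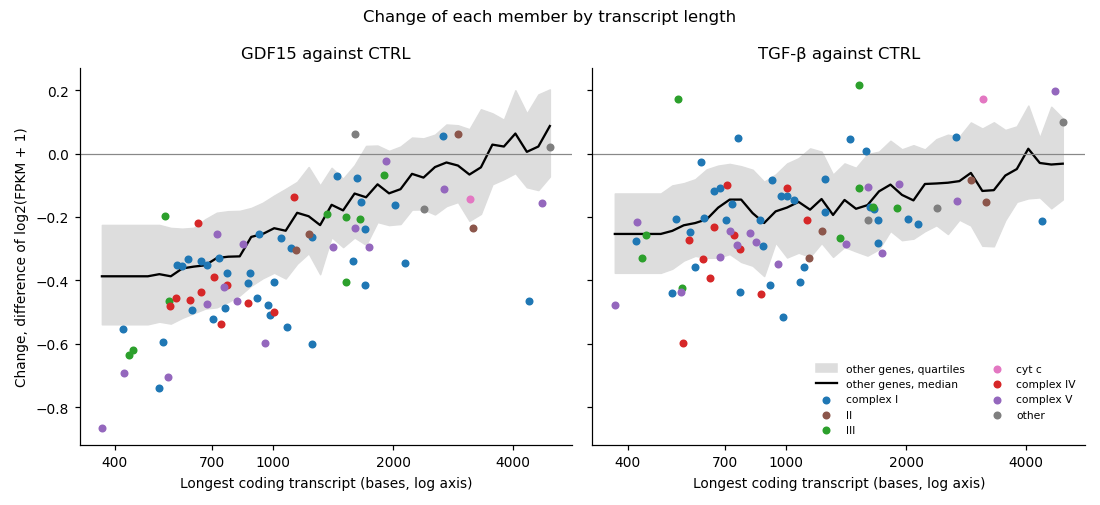
Change of each member against CTRL by the length of its longest coding transcript (log axis) in GDF15 (left) and TGF-β (right). The line is the median and the band the quartiles over about 100 other genes nearest in length. Most members lie below the line in GDF15, and both lines rise with length.

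After subtraction of the median change of the about 500 other genes nearest in length, the median of the members was -0.13 in GDF15 (66 of 78 below 0) and -0.06 in TGF-β (55 of 78). With about 100 neighbours, which match the shortest members more closely, it was -0.10 (61 of 78) and -0.06 (54 of 78). By more than 0.32, 8 of the 78 were lower in GDF15 with the wider set of neighbours, against 5.12% of other genes adjusted in the same way, and 5 with the narrower one, against 5.09%. In TGF-β 2 were, with either set, against 8.61% and 8.74%. With the narrower set, the shares of members past this limit were thus near that of other genes in GDF15 and below it in TGF-β. Between both stimulated libraries, the median fell from 0.13 to 0.073 with the wider and 0.043 with the narrower set, and 8 and 7 members were higher in TGF-β by more than 0.32, against 4.03% and 4.01%. In both comparisons with CTRL, subtracting the wider or the narrower neighbour median thus removed the larger share of the median change. The subtracted medians also hold the shift of all expressed genes, -0.03 in GDF15 and -0.07 in TGF-β. The part removed therefore did not go with transcript length alone. The members furthest below their length neighbours in GDF15 were *Atp5k* (-0.57), *Ndufb2* (-0.49), *Ndufa3* (-0.44), *Ndufc1* (-0.41) and *Atp5l* (-0.41), and the value of *Ndufb2*, named after its values were seen, rests on a longest transcript of 4371 bases. By complex, the adjusted medians in GDF15 were -0.11 (I), -0.07 (II), -0.08 (III), -0.16 (IV) and -0.17 (V), and in TGF-β -0.039, -0.068, -0.050, -0.080 and -0.11 in the same order. In GDF15, 12 of the 78 lay above their length neighbours, the furthest of them *Atp5s* (0.20), *Ndufs1* (0.11) and *Uqcrb* (0.10). In TGF-β, *Uqcrb* (0.36), *Uqcrq* (0.35), *Cycs* (0.25) and *Atp5g1* (0.24) stood above their length neighbours, and *Cox8a* (-0.40) and *Ndufs7* (-0.34) below.

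Cytosolic ribosomal protein genes, which share short transcripts and high levels with the members, were lower by as much. The medians over the 83 expressed ones were -0.41 in GDF15 and -0.26 in TGF-β, with a median length of 975 bases. The 76 mitochondrial ribosomal protein genes, with a median length of 1302 bases, had medians of -0.26 and -0.15. Relative to about 100 genes nearest in length, with both ribosomal families left out of the reference, the medians in GDF15 were -0.11 for the members, -0.17 for the cytosolic and -0.09 for the mitochondrial ribosomal proteins. By this measure the cytosolic ribosomal protein genes lay lower than the respiratory chain genes.

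**Figure D4:**
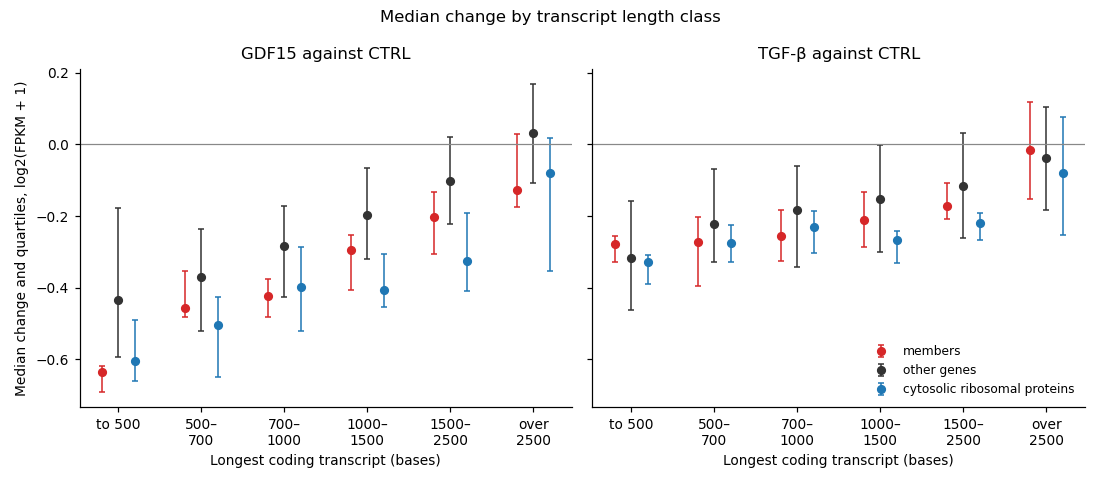
Median change against CTRL (points) with quartiles (bars) by class of longest coding transcript, for members, other genes and cytosolic ribosomal protein genes. The members lie below the other genes in all 6 classes in GDF15 (left) and in 4 of 6 in TGF-β (right).

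Other genes of mitochondrial energy metabolism, from lists written out by name, had smaller median changes and longer transcripts. Relative to about 100 genes nearest in length, without ribosomal protein genes, their medians in GDF15 and TGF-β were -0.011 and 0.013 for assembly factors, 0.027 and 0.022 for the citric acid cycle, 0.0024 and 0.082 for exchange genes and the inhibitor, and 0.023 and 0.041 for regulators. None of the 13 subunits encoded by mitochondrial DNA was analysed here. Of 26 expressed assembly factors, 4 were lower by more than 0.32 in GDF15 (15.4%, against 10.0% of all expressed genes) and 0 higher, with a median change of -0.07 and a median length of 2310 bases. *Cox17*, the copper chaperone of complex IV, was at 73.4 in CTRL, 46.5 with GDF15 and 52.7 with TGF-β. *Sco2*, which inserts copper into complex IV, was at 6.34, 4.17 and 5.45, and *Cox19* at 23.0, 16.1 and 16.3. *Ndufaf2*, an assembly factor of complex I, was at 14.4, 11.0 and 12.1. In TGF-β, 4 assembly factors were also lower by that much, a share of 15.4% that is close to the 14.3% of all expressed genes, *Cox17*, *Cox19*, *Surf1* (30.0, 24.3 and 21.8) and *Uqcc* (10.1, 9.35 and 7.65).

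Of 12 citric acid cycle genes, *Suclg2*, the GDP-forming succinyl-CoA ligase subunit, was lower by more than 0.32 (35.0, 27.6 and 23.9), a share of 8.33% against the 10.0% of all expressed genes, and none was higher. The median change of the 12 was -0.05 in GDF15 and -0.10 in TGF-β. Among 7 genes for exchange across the mitochondrial membranes and the ATP synthase inhibitor, *Atpif1*, the inhibitor, was at 167 in CTRL, 123 with GDF15 and 136 with TGF-β. Its transcript has 539 bases. The nucleotide carrier *Slc25a5* was higher in TGF-β (36.6, 36.2 and 47.4) and the pore protein *Vdac2* lower (110.5, 90.6 and 84.0).

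Of 11 expressed regulators, 2 were lower and 1 was higher by more than 0.32 in GDF15, numbers too small to set apart from the 10.0% and 6.53% of all expressed genes. *Esrra*, an orphan nuclear receptor that activates respiratory chain genes, was at 12.0 in CTRL, 8.79 with GDF15 and 7.47 with TGF-β. *Ppargc1b*, a coactivator that works with it, was at 1.81, 1.01 and 0.860. *Gabpa*, the DNA-binding subunit of GABP, was at 7.64, 10.7 and 8.46, but its gene overlaps *Atp5j* and their reads may be mixed. *Nrf1* was at 6.03, 6.31 and 5.62 and *Tfam*, which packages mitochondrial DNA and helps to start its transcription, at 5.82 in CTRL, 5.82 with GDF15 and 5.79 with TGF-β, so these last 2 genes stayed within 0.09 of CTRL. *Ppargc1a* was at 0.502, 0.285 and 0.179. The part of these regulators in the change of the members was not tested.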

How the data were processed

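The deposited table holds 1 FPKM column for each of 3 libraries (CTRL, GDF15 and TGF-β) and 15554 rows. The authors made stranded mRNA libraries from pooled RNA, sequenced them in single-end mode and calculated FPKM with Cufflinks. The submitters' processing notes name TopHat 1.3.2, Bowtie 0.12.9, Cufflinks 2.0.2 and the build mm10. Columns were matched to treatments by the treatment that each column name holds.

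Changes are differences of log2(FPKM + 1). Medians and counts use expressed genes, those whose mean FPKM over the 3 libraries is 1 or more. No test was made, because each treatment has 1 library. Depth was estimated from single-fragment steps of low FPKM, and fragment numbers, counting errors and the floor of 3 fragments cover counting error only. Transcript lengths came from GENCODE M21 (GRCm38), with the longest coding transcript as the main choice. Near-identical copies were sought with BLASTN (at least 98% identity over at least 50 bases). Length adjustment subtracted the median change of the nearest non-members, about 500 in the main setting and about 100 in another.

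Genes named are all subunits of complex II, the core and catalytic subunits, the isoform sets, the 5 largest changes each way, and the highest and lowest gene of each complex. A single member that this rule names is not reported here, and it enters medians and counts only. The members and lists were chosen with earlier results of these data known. Alternatives were pseudocounts of 0.5, 0.1 and none, no minimum or a minimum mean FPKM of 10, a common upper quartile, removal of trends with expression or length, and leaving out 3 genes that are no subunits. Python 3.11.15, numpy 2.4.6 and pandas 2.3.3 were used, and the scripts were tested on simulated data.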

Additional observations from a re-analysis of the deposited data

How the results depend on the processing

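No paired analysis was possible because a single pooled library stands for each treatment, which also means that none could be left out. The 3 pseudocount settings, both settings of the minimum and the removal of 3 genes that are no subunits kept the median change of the members between -0.38 and -0.34 in GDF15 and between -0.22 and -0.21 in TGF-β, and the counts lower by more than 0.32 at 45 to 46 and 18 to 19. Members over 2-fold, 0 in the report, became 1 at a pseudocount of 0.5, 4 at 0.1 and 1 without one, all of them isoforms under the minimum level. Scaling to a common upper quartile left 11 members lower by that much in TGF-β, against 9.86% of all expressed genes, as did removal of the trend with expression (11, against 9.29%). In GDF15 the common upper quartile left 38, against 8.30%, and removal of the trend with expression left 32. For the latter no share over all genes is given here.

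Settings chosen after seeing the data were scaling of each library to a sum of 1e6 and 5 further length adjustments. The first moved the median of all genes in GDF15 from -0.03 to 0.07 and those of the members to -0.24 and, in TGF-β, to -0.12, with 28 members lower by 0.32 in GDF15, 9 in TGF-β and 2 over 2-fold. Over all genes it turned the shares lower and higher by that much in GDF15 from 10.0% and 6.53% to 5.83% and 15.3%. Relative to all genes, the members were 0.32 lower in GDF15 under both scalings, and in TGF-β the difference was -0.14 and -0.13.

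Length adjustment moved most. The medians in GDF15 and TGF-β were -0.13 and -0.062 with about 500 neighbours, -0.10 and -0.062 with about 100, -0.11 and -0.067 with about 100 and no ribosomal protein genes, -0.17 and -0.093 with length and expression, -0.15 and -0.065 with length and GC content, and -0.12 and -0.059 with the principal transcript. The counts lower by 0.32 were 8, 5, 8, 11, 12 and 9 in GDF15 and 2 in TGF-β under each. With about 500 and about 100 neighbours, the shares of other genes past this limit were 5.12% and 5.09% in GDF15 and 8.61% and 8.74% in TGF-β. For the remaining settings no such share was computed. Against about 100 neighbours, with or without ribosomal protein genes, *Ndufa4* turned from -0.33 to 0.026 and 0.018 in GDF15. Of 1322 values of 54 named members, 1228 moved by less than the local spread. Of these values, 95 of 18 members changed sign, 83 of them under a length adjustment. Over all 78 members, 4 with a change over 0.32 did so in GDF15, *Ndufa4* and, named after their values were seen, *Ndufa2* (-0.35 to 0.0094), *Ndufa6* (-0.35 to 0.0078) and *Ndufb6* (-0.34 to 0.014), the last 3 against about 100 neighbours. Of smaller changes of named members, *Uqcrb*, *Cox5a*, *Ndufa11* and *Atp5g3* did by more than the local spread. At the short end, genes near in length are few: the wider set for the shortest member reaches up to 1063 bases and the narrower one up to 668.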
